A study of Mus musculus with 10 samples.

Results

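Cholesterol and fatty acid synthesis was followed here through 33 genes of mouse pre-osteoblasts. The genes were taken from the deposited table by symbol, as 32 listed names plus Msmo1, which the table holds under its older symbol Sc4mol, and all 33 were found among its 23358 rows. The rule used no measured value, but members and lists were chosen with earlier results of these data known. By role they form a sterol arm of 17 enzymes that build cholesterol, a fatty acid arm of 11 enzymes that make, lengthen and desaturate fatty acids, and 5 regulators and transport genes. All 33 were among the 14344 genes left by a filter on low counts.

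The cells were MC3T3, an established mouse line of calvarial pre-osteoblasts, driven towards bone-forming cells by a medium with beta glycerol phosphate and ascorbic acid. Every group received that medium, and the groups differed only in treatment and day. The vehicle groups received the solvent, and the GSK126 groups received GSK126 at 5 µM, a compound that blocks EZH2. This Polycomb enzyme writes the repressive mark H3K27me3. Vehicle or compound was given when differentiation began and again 3 days later, and both were withdrawn on day 6, so that the day 10 cells had been cultured without the compound. The 6 RNA groups (vehicle and GSK126 on days 3, 6 and 10) held 1 library each. H3K27me3 chromatin and input DNA were sequenced 24 hours after the first dose, with 1 library of each kind per treatment. It is a single cell line in culture, and the labels do not say whether the days came from parallel dishes of 1 experiment.

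Library totals were between 97291878 and 111537936 counts. Levels below are normalised CPM (counts scaled to the library total and corrected for composition). The tissue label held: 9 of 9 osteoblast markers passed the filter, and Col1a1 stood between 23743 and 36243 CPM. The adipocyte genes Adipoq, Plin1, Cidec, Lep and Retn did not exceed 0.0878 CPM in any library. The 10 adipocyte markers summed to 7.003 to 15.7 CPM, nearly all of it Cebpa, and 5 macrophage and blood markers summed to 2.32 CPM at most. With no replicate within a day, a standard error (SE) of a fitted log2 difference rests on how 3 vehicle and GSK126 pairs of libraries vary, and an interval on 1 pair of libraries covers counting error only. Because this is RNA from whole cultures, fewer expressing cells and less RNA per cell cannot be told apart.

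Cells make cholesterol and fatty acids from the same cytosolic acetyl-CoA. Both arms are switched on by sterol regulatory element-binding proteins (SREBPs), which Srebf1 and Srebf2 encode. When sterols are plentiful, the INSIG proteins hold the SREBP precursors and their escort SCAP in the endoplasmic reticulum; when sterols run low, SREBPs travel to the Golgi, are cut, and enter the nucleus. The SREBP-2 form favours sterol genes and the SREBP-1c form favours fatty acid genes. Proliferating cells use both products for new membrane.

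SREBPs bind promoters together with NF-Y and SP1, so the promoter windows of the genes that the results turn on are shown here. They run from 250 bases before to 50 bases after the start site, 5′ to 3′ on the gene's own strand, from RefSeq on build GRCm38.p6. Capitals mark matches on either strand to the sterol regulatory element TCACNCCAC, its E-box form TCACNTGA, the NF-Y box CCAAT or the SP1 box GGGCGG. Hmgcs1 is shown as the only matched member with an exact sterol regulatory element, Srebf2 as the SREBP gene that fell in culture, and Insig1 and Insig2 as a pair of related regulators that moved apart. Ebp and Me1 are shown as the members of each arm with a fitted day 10 difference above 0. The windows lie at chr13:119690101-119690400 (plus strand), chr15:82147019-82147318 (plus strand), chr5:28071162-28071461 (plus strand), chr1:121332540-121332839 (minus strand), chrX:8193463-8193762 (minus strand) and chr9:86695865-86696164 (minus strand).
Hmgcs1: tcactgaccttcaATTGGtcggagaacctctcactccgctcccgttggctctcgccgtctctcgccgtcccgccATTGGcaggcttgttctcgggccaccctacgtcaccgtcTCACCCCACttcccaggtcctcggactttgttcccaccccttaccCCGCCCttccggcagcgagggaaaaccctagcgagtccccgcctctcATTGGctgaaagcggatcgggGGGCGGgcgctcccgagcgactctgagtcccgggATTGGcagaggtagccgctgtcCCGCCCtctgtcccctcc
Srebf2: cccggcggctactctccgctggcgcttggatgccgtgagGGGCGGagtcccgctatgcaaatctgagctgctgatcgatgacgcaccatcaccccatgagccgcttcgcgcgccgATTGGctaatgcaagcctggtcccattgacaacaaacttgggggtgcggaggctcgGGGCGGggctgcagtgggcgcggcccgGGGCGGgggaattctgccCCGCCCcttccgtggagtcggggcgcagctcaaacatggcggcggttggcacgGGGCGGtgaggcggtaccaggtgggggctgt
Insig1: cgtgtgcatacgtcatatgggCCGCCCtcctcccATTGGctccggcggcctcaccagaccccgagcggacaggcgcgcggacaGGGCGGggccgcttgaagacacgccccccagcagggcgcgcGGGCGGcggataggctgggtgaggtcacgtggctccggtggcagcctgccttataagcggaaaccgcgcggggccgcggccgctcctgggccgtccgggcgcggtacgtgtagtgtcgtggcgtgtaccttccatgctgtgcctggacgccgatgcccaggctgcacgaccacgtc
Insig2: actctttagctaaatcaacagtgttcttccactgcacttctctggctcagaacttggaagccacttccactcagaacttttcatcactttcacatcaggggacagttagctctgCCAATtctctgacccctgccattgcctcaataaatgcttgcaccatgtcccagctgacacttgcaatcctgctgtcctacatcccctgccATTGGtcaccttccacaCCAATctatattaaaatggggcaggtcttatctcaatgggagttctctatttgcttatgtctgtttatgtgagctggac
Ebp: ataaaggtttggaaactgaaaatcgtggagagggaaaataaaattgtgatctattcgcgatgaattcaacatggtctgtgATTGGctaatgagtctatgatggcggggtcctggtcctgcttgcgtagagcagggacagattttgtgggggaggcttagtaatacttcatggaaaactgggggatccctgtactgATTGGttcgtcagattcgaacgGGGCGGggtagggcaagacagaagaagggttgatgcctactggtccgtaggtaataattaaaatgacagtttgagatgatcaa
Me1: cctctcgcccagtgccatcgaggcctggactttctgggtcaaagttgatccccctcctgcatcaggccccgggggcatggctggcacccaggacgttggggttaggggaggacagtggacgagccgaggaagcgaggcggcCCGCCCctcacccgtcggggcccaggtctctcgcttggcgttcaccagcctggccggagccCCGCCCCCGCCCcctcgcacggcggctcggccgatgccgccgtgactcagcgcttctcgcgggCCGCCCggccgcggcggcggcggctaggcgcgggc

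Of the 33 members, 26 had a promoter entry. Fdps, Fdft1, Sqle, Scd1, Scd2, Fads1 and Stard4 had none. The exact sterol regulatory element, whose first base lies 137 bases upstream of the start in Hmgcs1, was found in 1 of the 26 windows, against 1.18% of the 15713 promoters searched. With 1 changed base allowed it was found in 10 of 26, against 24.4% of all promoters. The E-box form, which overlaps the element in its first 4 bases, was in 0 of 26, against 4.34%. The NF-Y box was in 11 of 14 sterol windows and 4 of 8 fatty acid windows, against 39.0% of all promoters. The SP1 box was in 13 of 14 and 4 of 8, against 47.9% of all promoters and 63.3% of those of tested genes. In the sequences above, Hmgcs1 carried 4 NF-Y boxes and 3 SP1 boxes, Insig1 carried 1 and 3, Srebf2 1 and 5, and Ebp 2 and 1. Insig2 carried 3 NF-Y boxes with 0 SP1 boxes, and Me1 4 SP1 boxes with 0 NF-Y boxes. These matches describe letters in a window of 300 bases and show no binding.

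The first comparison asks how the pathway changed over the culture, averaged over both treatments. Cholesterol and fatty acid synthesis genes were lower on day 10 than on day 3, and the sterol arm had the larger median difference. In the sterol arm 16 of 17 genes fell and in the fatty acid arm 9 of 11, while among the regulators 3 fell and 1 rose (edgeR's quasi-likelihood test, Benjamini-Hochberg adjusted p below 0.05). In all, 29 of 33 members passed, against 26.6% of all genes tested. Among all genes, 12.5% fell and 14.1% rose. The median fitted log2 difference was -1.58 in the sterol arm, -1.002 in the fatty acid arm and -0.01 over all genes tested. The arms were not tested against each other. The share of counts on the ribosomal RNA gene Rn45s moved with day. Over days 3, 6 and 10 it was 4.37%, 5.99% and 7.24% in vehicle, and 4.44%, 5.61% and 7.47% with GSK126. With the Rn45s row removed, 29 members again passed, 28 of them lower. Whether RNA quality had a part in the falls was not tested.

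These counts depended on which library of day 3 or day 10 was left out, and least on the GSK126 library of day 10. Without the GSK126 library of day 3, 0 of 33 members passed (30 at an unadjusted p below 0.05, lowest adjusted p = 0.0745), and the calls over all genes shrank to 48 higher and 22 lower (0.48%). Without the vehicle library of day 10, 1 member passed, against 1.04% of all genes, and without the vehicle library of day 3, 14 did, against 4.93%, with 8 sterol and 2 fatty acid genes lower. Where a library is left out, the day it leaves with a lone library is assumed to vary like the others. Over the 7 fits that leave out a library or day 6, the direction did not turn for any of the 28 members that fell, nor for Insig2. Scaling by library size alone gave 30 members called, against 28.8% of all genes, but it moved the median of all genes to -0.11 and the calls over all genes from 2026 higher and 1793 lower to 1484 higher and 2644 lower.

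**Figure D1:**
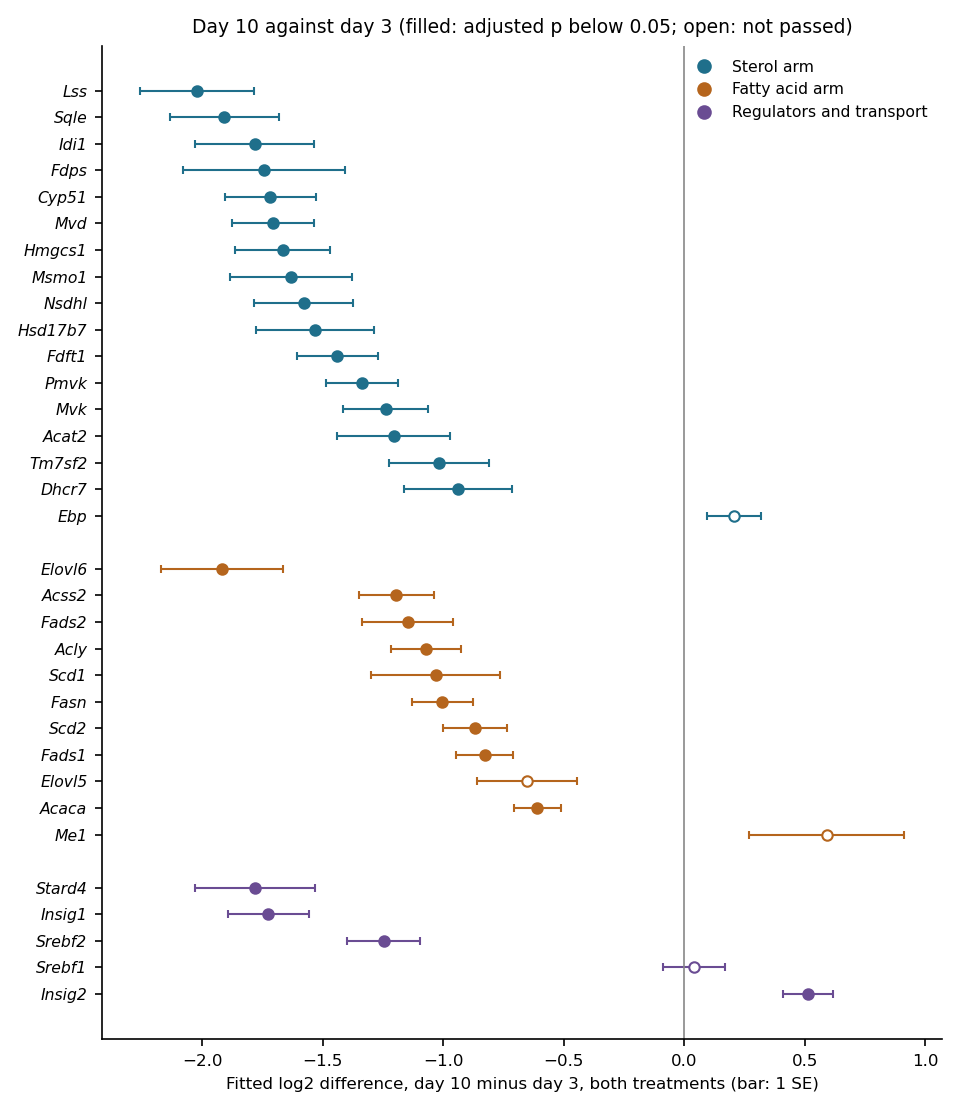
Fitted log2 difference between day 10 and day 3 for each of the 33 members, averaged over both treatments, with bars of 1 SE. Sterol genes reach from -2.02 (Lss) to 0.21 (Ebp), fatty acid genes from -1.92 (Elovl6) to 0.59 (Me1), and 4 open points did not pass the test.

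The regulators parted. Srebf2, which encodes SREBP-2, stood at 299, 256 and 113 CPM in vehicle and at 292, 208 and 137 with GSK126 on days 3, 6 and 10. Both day 10 libraries were below the other 4, and Srebf2 fell by 1.25 on the log2 scale (SE 0.15, edgeR adjusted p = 0.0122). Srebf1, which encodes SREBP-1a and SREBP-1c, stood at 50.5, 48.6 and 44.1 CPM in vehicle and at 44.4, 49.7 and 53.8 with GSK126. Its libraries overlap across days, and its fitted log2 difference of 0.04 (SE 0.13, edgeR adjusted p = 0.84) changed sign under 3 alternatives, to between -0.14 and -0.06. Srebf1 shares its span with Rai1, and since the library kit does not mark strand, reads of the 2 genes cannot be told apart where they overlap.

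The INSIG genes moved in opposite directions. Insig1, itself a target of SREBPs, stood at 340, 287 and 94.8 CPM in vehicle and at 335, 211 and 109 with GSK126. Its day 10 libraries did not overlap the earlier ones, and it fell by 1.72 on the log2 scale (SE 0.17, 3.30-fold lower, edgeR adjusted p = 0.0103). Insig2 stood at 44.7, 47.7 and 57.3 CPM in vehicle and at 46.9, 53.0 and 74.6 with GSK126. Both day 10 libraries were above the rest, and Insig2 rose by 0.52 (SE 0.10, 1.43-fold, edgeR adjusted p = 0.0242), the only member called higher. The call was lost without any 1 of the 4 libraries of days 3 and 10 (edgeR adjusted p between 0.0669 and 0.17), with a difference of 0.38 to 0.65. Per length, on the authors' RPKM scale, the levels of Insig1 and Insig2 were 105 and 14.5 in vehicle on day 3 and 28.6 and 18.2 on day 10. Stard4, a carrier that moves cholesterol between membranes, stood at 112, 72.5 and 29.0 CPM in vehicle and at 116, 44.7 and 37.1 with GSK126. Stard4 fell by 1.78 (SE 0.25, edgeR adjusted p = 0.0135), and its day 6 and day 10 libraries were all below those of day 3.

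In the sterol arm, genes from the head to the end of the pathway fell. Acat2, which joins acetyl-CoA units, was 2.31-fold lower on day 10 and Hmgcs1, which makes HMG-CoA, 3.17-fold. The mevalonate genes Mvk, Pmvk and Mvd were 2.36-fold, 2.53-fold and 3.26-fold lower. Fdps, which makes farnesyl diphosphate, was 3.34-fold lower, and Fdft1, which commits it to squalene, 2.71-fold. Among the enzymes that trim lanosterol, Msmo1 was 3.10-fold lower, Nsdhl 2.99-fold and Hsd17b7 2.89-fold. All 10 passed (edgeR adjusted p between 0.0103 and 0.0221). Msmo1 and Fdps had the widest SE of these, 0.25 and 0.34, with treated and control libraries far apart on day 10.

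The 3 largest falls of the sterol arm were those of Lss, Sqle and Idi1. Lss, which closes the ring to lanosterol, stood at 134, 83.5 and 28.5 CPM in vehicle and at 115, 46.6 and 31.8 with GSK126. Sqle, the squalene epoxidase that controls flux late in the pathway, stood at 337, 256 and 73.3 CPM in vehicle and at 323, 187 and 103 with GSK126. Idi1, which isomerises isopentenyl diphosphate, stood at 262, 173 and 64.3 CPM in vehicle and at 275, 120 and 92.1 with GSK126. In each of the 3, the day 10 libraries lay below all others. Lss fell by 2.02 on the log2 scale (SE 0.24, 4.06-fold lower), Sqle by 1.91 (SE 0.23) and Idi1 by 1.78 (SE 0.25), with edgeR adjusted p of 0.0119, 0.0119 and 0.0134.

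The smallest differences were late in the pathway. Tm7sf2, a sterol reductase with the lowest level per length of the 33 (mean 5.30 RPKM), stood at 16.7, 8.79 and 6.49 CPM in vehicle and at 12.5, 6.44 and 7.74 with GSK126. Dhcr7, which takes the last step to cholesterol, stood at 75.2, 58.3 and 28.3 CPM in vehicle and at 80.1, 68.7 and 56.5 with GSK126. Tm7sf2 fell by 1.02 (SE 0.21, edgeR adjusted p = 0.0246) and Dhcr7 by 0.94 (SE 0.22, edgeR adjusted p = 0.0348). The step of Dhcr7 was the larger in vehicle. Ebp, a sterol isomerase, was the exception of the arm. Its levels were 74.3, 68.6 and 77.2 CPM in vehicle and 72.5, 63.9 and 92.6 with GSK126. Ebp did not pass (log2 difference 0.21, SE 0.11, edgeR adjusted p = 0.21). The listed spans of 9 other rows of the table on the X chromosome overlap its span, so its count is less certain.

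In the fatty acid arm, the genes that supply carbon came first in order of pathway. Acly, which splits citrate into acetyl-CoA, stood at 475, 345 and 208 CPM in vehicle and at 394, 233 and 203 with GSK126. Acss2, which makes acetyl-CoA from acetate, stood at 49.2, 35.2 and 24.9 CPM in vehicle and at 40.8, 19.7 and 15.6 with GSK126. The day 10 libraries of both genes lay below those of day 3. Acly fell by 1.07 on the log2 scale (SE 0.14, edgeR adjusted p = 0.0131) and Acss2 by 1.19 (SE 0.16, edgeR adjusted p = 0.0127). Acaca, the carboxylase that makes malonyl-CoA, stood at 179, 148 and 115 CPM in vehicle and at 183, 134 and 123 with GSK126. Fasn, the fatty acid synthase, stood at 557, 443 and 261 CPM in vehicle and at 542, 370 and 287 with GSK126. The fall of Acaca was the smallest of the called members at 0.61 (SE 0.10), and that of Fasn was 1.002 (SE 0.12).

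The elongases differed from each other. Elovl6, which lengthens palmitate, stood at 143, 96.8 and 40.3 CPM in vehicle and at 134, 44.9 and 33.8 with GSK126. Elovl5, which lengthens polyunsaturated chains, stood at 58.0, 38.8 and 27.3 CPM in vehicle and at 61.0, 47.2 and 51.7 with GSK126. Elovl6 fell by 1.92 (SE 0.25, edgeR adjusted p = 0.0127), which places it between Lss and Sqle. Elovl5 missed the threshold (log2 difference -0.65, SE 0.21, edgeR adjusted p = 0.0687), and passed with DESeq2 (adjusted p = 0.0196) with library size alone (adjusted p = 0.0341) and in edgeR without the GSK126 library of day 10 (-1.03, adjusted p = 0.0363).

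Desaturases put double bonds into fatty acids. Scd2, the stearoyl-CoA desaturase that is the main form in many tissues outside the liver, was the member with the highest level per length, with a mean of 271 RPKM. It stood at 2360, 1863 and 1145 CPM in vehicle and at 2358, 1915 and 1454 with GSK126. Its relative Scd1 stood at 333, 234 and 116 CPM in vehicle and at 294, 182 and 193 with GSK126. Scd2 fell by 0.87 (SE 0.13) and Scd1 by 1.03 (SE 0.27), with edgeR adjusted p of 0.0149 and 0.0417. Fads1 and Fads2 desaturate polyunsaturated chains and lie close together on chromosome 19. Fads1 stood at 411, 362 and 219 CPM in vehicle and at 384, 291 and 228 with GSK126. Fads2 stood at 165, 117 and 61.9 CPM in vehicle and at 150, 87.2 and 79.7 with GSK126. Fads1 fell by 0.83 (SE 0.12) and Fads2 by 1.15 (SE 0.19), and in both genes day 10 lay below day 3 in either treatment.

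Me1, the malic enzyme that supplies NADPH for fatty acid synthesis, went its own way. It stood at 113, 104 and 115 CPM in vehicle and at 116, 255 and 275 with GSK126. Vehicle cells held Me1 at a near constant level while the GSK126 libraries of days 6 and 10 were far above all others. Its fitted day 10 difference of 0.59 (SE 0.32, edgeR adjusted p = 0.21) therefore averages treatments that did not move alike. Without the vehicle library of day 3 it was 1.26 and passed (edgeR adjusted p = 0.0290).

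**Figure D2:**
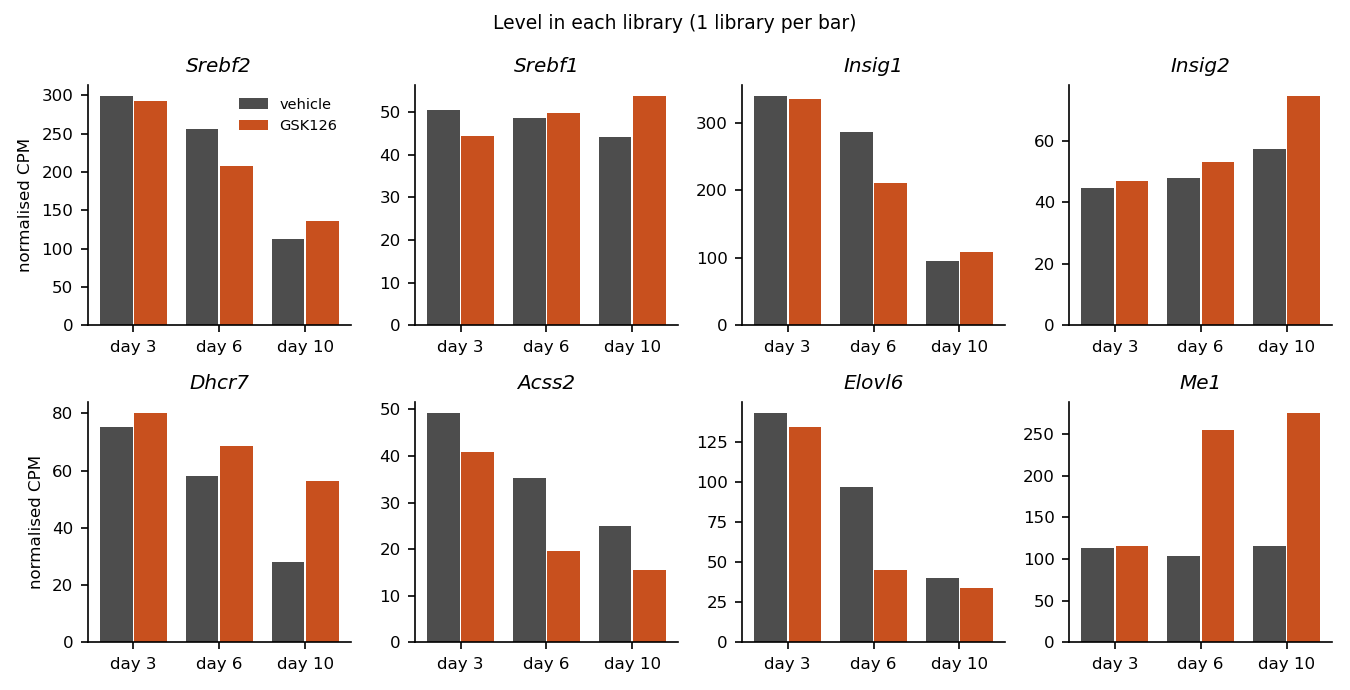
Normalised CPM of 8 members in each of the 6 RNA libraries, with 1 library per bar. Srebf2 and Insig1 step down to day 10 while Srebf1 stays between 44.1 and 53.8 CPM and Insig2 reaches 74.6 CPM; Me1 with GSK126 stands at 255 and 275 CPM on days 6 and 10, and Acss2 and Elovl6 are lower with GSK126 on each day.

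The timing within each treatment was compared next, from ratios between libraries of 1 treatment, which have no test and share the day 6 library between their steps. The later step, from day 6 to day 10, spans more time than the earlier, and the sizes are not scaled per day. In vehicle the larger step of the sterol arm was the later step, and with GSK126 it was the earlier step. The median log2 ratio of day 6 to day 3 was -0.53 in vehicle and -0.96 with GSK126, and that of day 10 to day 6 was -1.39 in vehicle and -0.38 with GSK126. A lower first step with GSK126 than in vehicle was seen in 16 of 17 sterol genes, against 50.6% of all genes tested. A deeper second step in vehicle was seen in 17 of 17, against 47.2%. The steps and the ratios of GSK126 to vehicle on each day, given further on, are made from the same 6 libraries, and a deeper second step in vehicle is the same fact as a higher ratio on day 10 than on day 6. With GSK126, Acat2, Tm7sf2 and Ebp were higher on day 10 than on day 6, with log2 ratios of 0.39, 0.26 and 0.53, while the other 14 were lower. Over all genes tested, 48.6% were higher in that step.

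The fatty acid arm had the same order of steps with less contrast, again without scaling for the longer later step. Its medians from day 3 to day 6 were -0.46 in vehicle and -0.55 with GSK126, and those from day 6 to day 10 were -0.72 and -0.20. The first step was deeper with GSK126 in 8 of 11 genes, the second deeper in vehicle in 10 of 11. From day 3 to day 10 the medians were -1.75 in vehicle and -1.35 with GSK126 for sterol genes, and -1.09 and -0.75 for fatty acid genes. A log2 ratio of -0.5 or lower over the whole course was seen in vehicle in 29 of 33 members and with GSK126 in 28, against 16.7% and 19.1% of all genes tested.

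**Figure D3:**
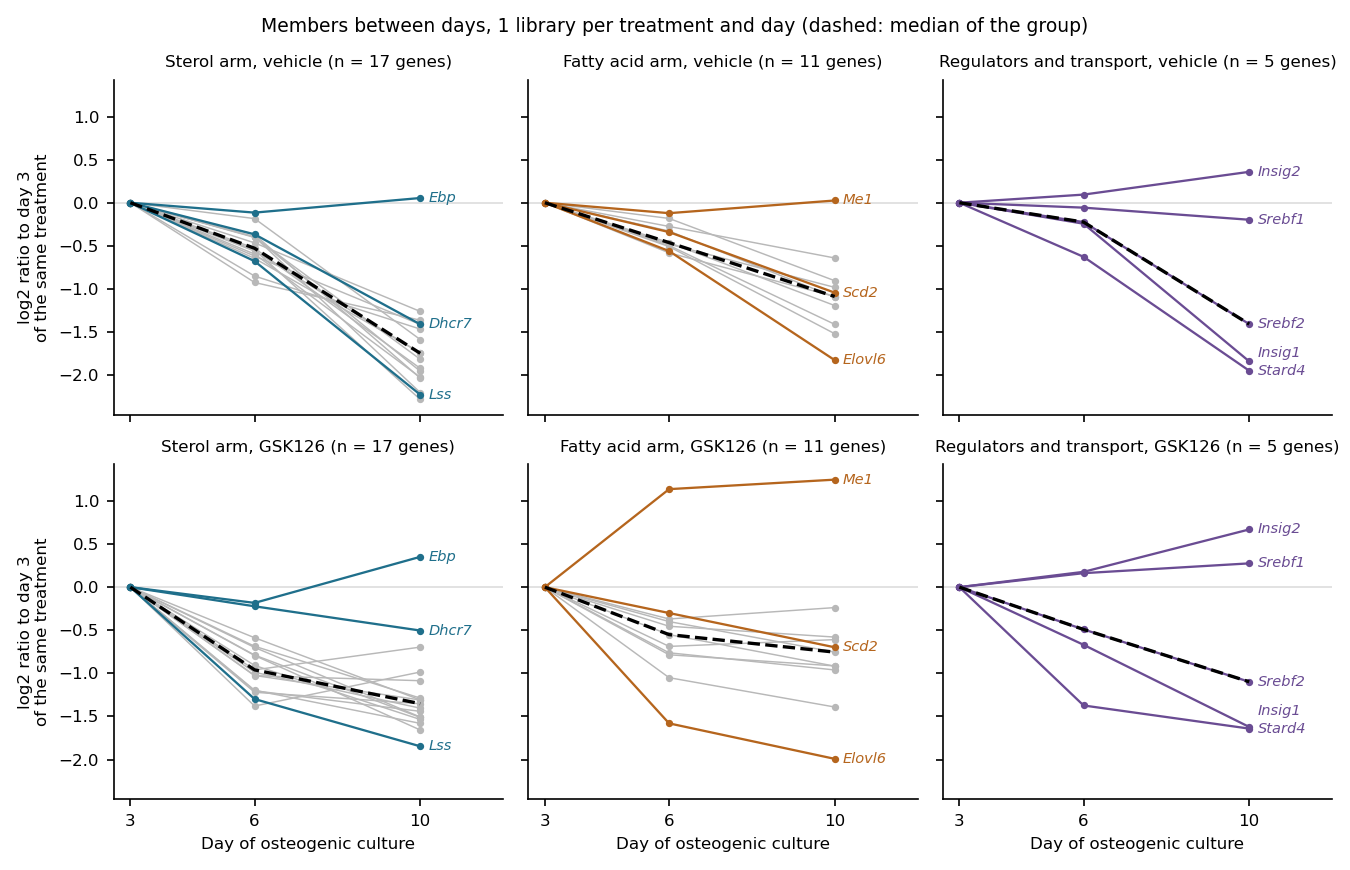
Log2 ratio of each member to day 3 of the same treatment, by arm (columns) and treatment (rows), with 1 library per point and the group median dashed. The sterol median ends at -1.75 in vehicle and at -1.35 with GSK126, after reaching -0.53 and -0.96 on day 6; Ebp, Me1 and Insig2 run outside the bundle.

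The fitted steps themselves were called for no member in edgeR. For day 6 against day 3, 0 of 33 passed (background 0.753%), with 20 at an unadjusted p below 0.05; DESeq2 called 17, where it called 12.1% of all genes, and limma-voom 0. For day 10 against day 6, 0 passed (background 0.00697%), with 26 at an unadjusted p below 0.05; DESeq2 called 18, where it called 14.8% of all genes, and limma-voom 0. Without the vehicle library of day 6, 10 members passed in edgeR for day 6 against day 3, of which 8 were sterol genes, and calls over all genes also grew, to 5.46%.

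The next comparison asks what the inhibitor did to these genes. Over the 3 days together no member differed between GSK126 and vehicle in edgeR (0 of 33, background 1.28%), with 3 fatty acid genes at an unadjusted p below 0.05 and 0 calls in limma-voom. DESeq2 called 2 of 33 members and 9.12% of all genes, so its count among the members is no higher than over all genes. Me1 was higher with GSK126 by 0.87 on the log2 scale (SE 0.26, edgeR adjusted p = 0.16, DESeq2 adjusted p = 0.00914). Acss2 was lower by 0.59 (SE 0.13, edgeR adjusted p = 0.0883, DESeq2 adjusted p = 0.00317), and it was below vehicle on 3 of 3 days. The third gene was Elovl5, with a fitted difference of 0.42 (SE 0.17, edgeR adjusted p = 0.25). Without the GSK126 library of day 3, edgeR called Me1 (1.27) and Acss2 (-0.76), against 3.42% of all genes, and without that of vehicle on day 3 it called Me1 (1.27), against 3.29%.

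By day, both arms stood below vehicle on day 6 and above it on day 10. On day 3 GSK126 and vehicle were close, with median log2 ratios of -0.06 in the sterol arm and -0.09 in the fatty acid arm. On day 6 the sterol median was -0.49, with 16 of 17 genes below vehicle, against 49.8% of all genes tested. On day 10, after removal, it was 0.26, with 16 of 17 above vehicle where 51.2% of all genes were below it, the exception being Pmvk at -0.05 (95% counting interval -0.21 to 0.10). In the fatty acid arm the medians were -0.31 with 8 of 11 below on day 6 and 0.14 with 8 of 11 above on day 10. The regulators had medians of -0.02, -0.30 and 0.29. All of these day ratios compare 1 library with 1 library and have no test.

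Within the sterol arm the day 6 ratios ran from Lss to Dhcr7. Lss had a log2 ratio of -0.84 (95% counting interval -0.92 to -0.77) on day 6 and 0.16 on day 10. Nsdhl, which removes a methyl group from the ring, stood at 77.1, 49.3 and 23.1 CPM in vehicle and at 64.9, 28.2 and 23.9 with GSK126. The day 6 ratio of Nsdhl was -0.81 (-0.90 to -0.71) and its day 10 ratio 0.05, so that the gap of day 6 was not seen on day 10. Cyp51, which removes another methyl group from lanosterol, stood at 483, 367 and 125 CPM in vehicle and at 508, 313 and 179 with GSK126. Its day 6 ratio was only -0.23 (-0.26 to -0.20), next to Ebp at -0.10 (-0.17 to -0.03). Dhcr7 alone in the arm was above vehicle on all 3 days, with ratios of 0.09, 0.24 and 0.999, the last being 1.998-fold. Beside Dhcr7, the largest day 10 ratios were those of Fdps (0.92, 129 against 68.1 CPM) and Msmo1 (0.68, 87.1 against 54.4 CPM). A log2 ratio of -0.5 or lower on day 6 was seen in 8 of 17 sterol genes, against 11.2% of all genes tested, and a ratio of 0.5 or higher on day 10 in 5 of 17, against 11.7%.

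The fatty acid genes were less uniform. On day 6 Elovl6 had a log2 ratio of -1.11 (95% counting interval -1.18 to -1.04), Acss2 of -0.84 (-0.95 to -0.72) and Acly of -0.57 (-0.60 to -0.53). They were also the 3 genes of the arm below vehicle on 3 of 3 days, with day 10 ratios of -0.25, -0.68 and -0.04 (the interval of Acly, -0.08 to 0.00, includes 0). That is 27.3% of the arm and 9.09% of all 33 members, against 22.7% of all genes tested. The share of the arm is thus near that over all genes. Me1 lay on the other side, with ratios of 0.03, 1.29 (1.25 to 1.34) and 1.25 (1.21 to 1.30) on days 3, 6 and 10. Elovl5 had ratios of 0.07, 0.28 and 0.92, and Scd1 of -0.18, -0.36 and 0.73. The highest-level gene, Scd2, had ratios within 0.05 of 0 on days 3 and 6 and of 0.35 (0.33 to 0.36) on day 10. Fasn and Acaca, the core of the pathway, stayed within -0.26 and 0.14 on every day.

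**Figure D4:**
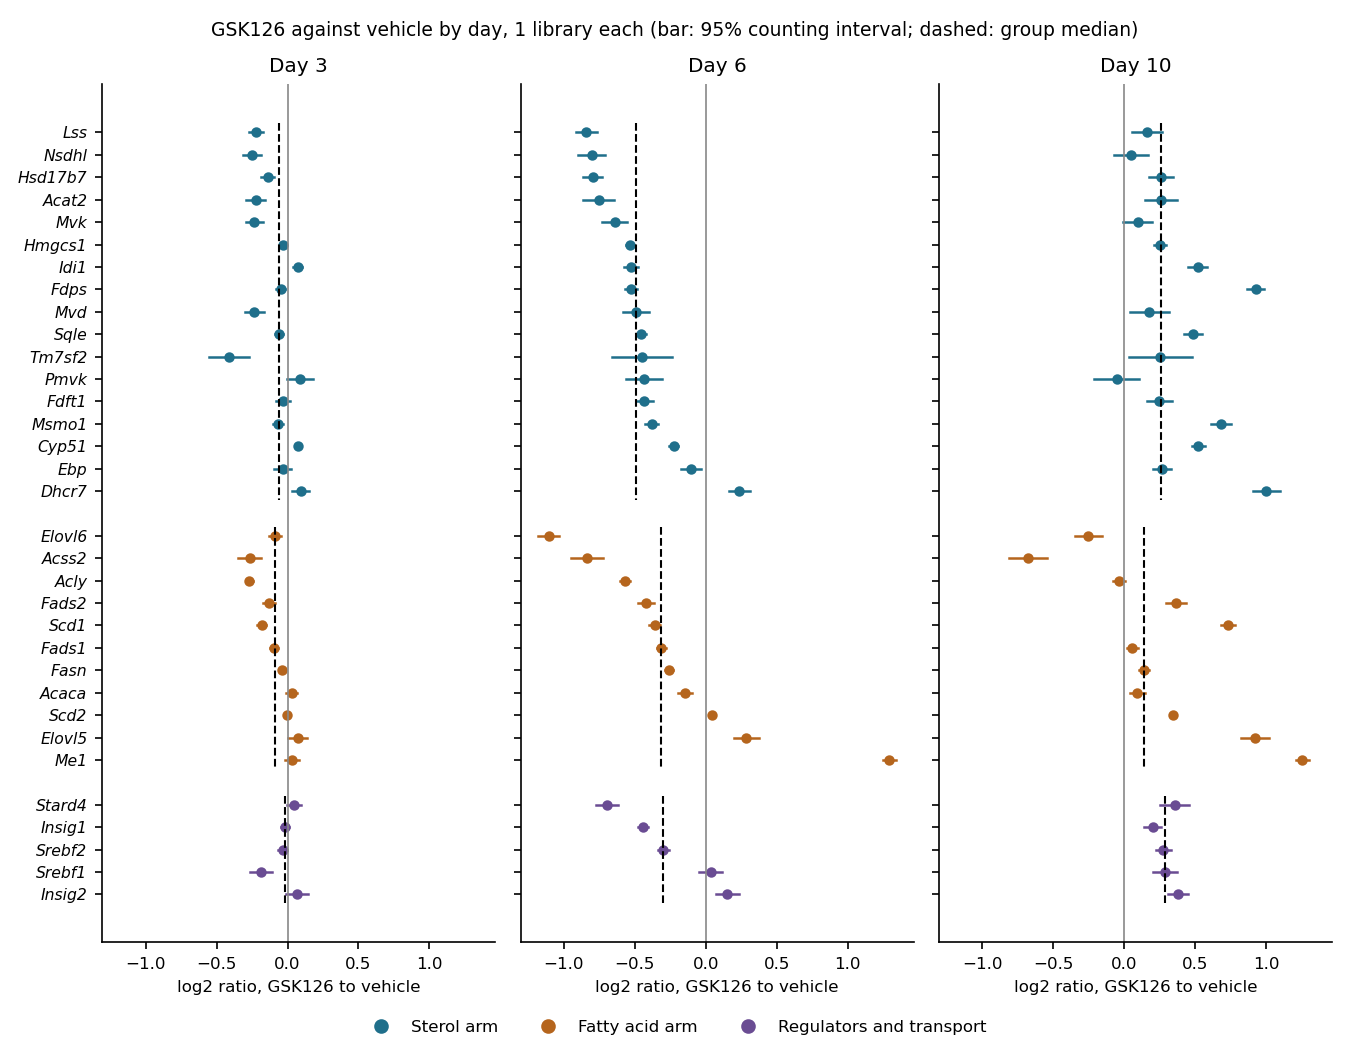
Log2 ratio of GSK126 to vehicle on days 3, 6 and 10 for the 33 members, each from 1 pair of libraries, with 95% counting intervals and the median of each group dashed. Sterol medians move from -0.06 to -0.49 and 0.26. On days 6 and 10, Me1 and Dhcr7 lie to the right and Acss2 and Elovl6 to the left of the other genes of their arm.

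Lower than vehicle on day 6 and higher on day 10 was the pattern of 15 of 17 sterol genes, 5 of 11 fatty acid genes and 3 of 5 regulators, against 17.8% of all genes tested. The day 6 ratio was below the day 10 ratio in 32 of 33 members, against 47.2% of all genes tested, the exception being Me1. The change after removal was tested as GSK126 on day 10 against days 3 and 6, with culture time and removal of the compound not to be told apart. No member passed in edgeR (0 of 33, background 0.0%), with 11 at an unadjusted p below 0.05, and limma-voom also called 0. The fitted term was above 0 in 17 of 17 sterol genes, with a median of 0.69, in 10 of 11 fatty acid genes, with a median of 0.34, and in 5 of 5 regulators. Over all genes tested it was above 0 in 6786 of 14344, with a median of -0.02. It is made from the same libraries as the day ratios and restates them in part. DESeq2 called Fdps (1.21, DESeq2 adjusted p = 0.0467) and 0.153% of all genes. This fit has 1 residual degree of freedom.

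Proliferation markers had the same order of days. In 8 of 8 markers (Mki67, Top2a, Ccnb1, Cdk1, Pcna, Mcm2, Mcm3 and Mcm5) the GSK126 library was lower than vehicle on day 6 and higher on day 10, with median log2 ratios of -0.75 and 0.77. Their summed level was 1800, 1097 and 1215 CPM in vehicle and 1897, 659 and 2059 CPM with GSK126 on days 3, 6 and 10. The summed sterol arm was 3133, 2287 and 890 CPM in vehicle and 3046, 1681 and 1201 CPM with GSK126. In the GSK126 libraries the marker sum of day 10 was above that of day 3, while the sterol sum of day 10 was below that of day 6. For day 10 against day 3, the fitted differences of the markers ran from -1.60 to 0.61 with a median of 0.06, and their lowest edgeR adjusted p was 0.0542. The part of proliferation in the levels of the 33 genes was not tested.

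**Figure D5:**
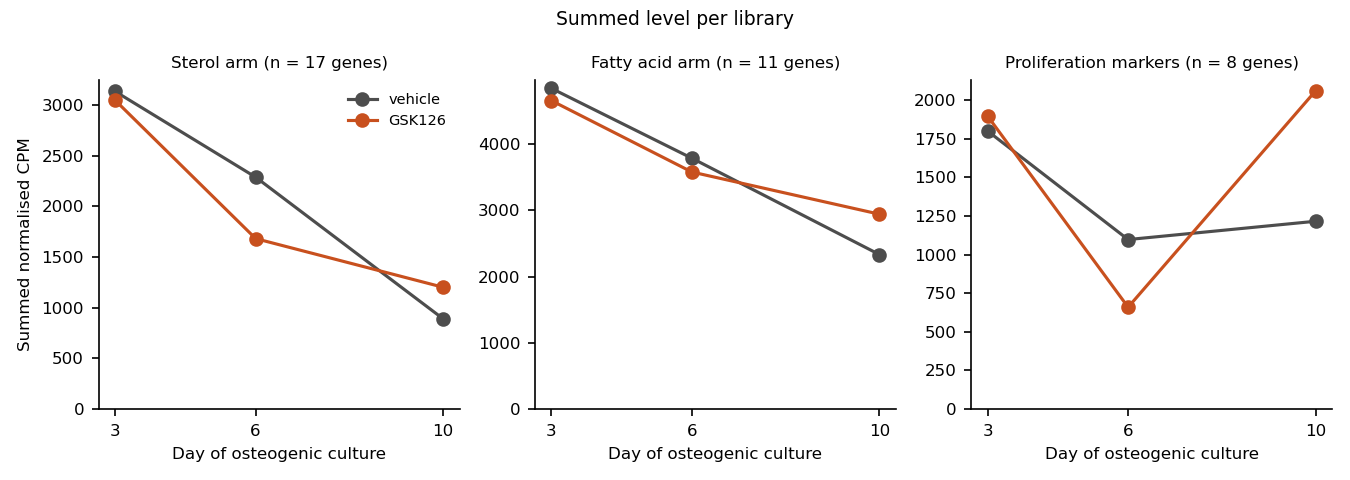
Summed normalised CPM per library of the sterol arm, the fatty acid arm and 8 proliferation markers against day. Sterol and fatty acid sums go down to 890 and 2334 CPM in vehicle on day 10, whereas the markers in the GSK126 libraries go from 659 CPM on day 6 to 2059 CPM on day 10.

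H3K27me3 was then looked for at the same genes, since the compound inhibits the enzyme that writes it. Few members had an island. An island is a stretch listed by the authors as enriched over input, taken here without a further cut on adjusted p. Some are weak: that near Mvd in vehicle had a fold of 1.25 (SICER adjusted p = 0.0743). An island lay within 2.5 kb of the start site of 1 of 26 members in vehicle and of 0 with GSK126, against 8.70% and 6.52% of tested genes. The 1 island belongs to Acss2. On build mm10 it spans chr2:155509801-155515600, upstream of the gene, and ends 2443 bases before its start, with an authors' fold of 1.57 over input. It was not called within that window with GSK126, while Acss2 RNA was below vehicle on 3 of 3 later days. Within 2.5 kb of the whole gene span, which could be searched for all 33 members, the counts were again 1 and 0, against 13.7% and 11.3% of tested genes. With a window of 10 kb the counts at start sites were 5 and 1 of 26, against 22.6% and 17.2% of tested genes. At Me1 no island lay within 10 kb in either treatment.

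The neighbours of the pathway were described from lists of related genes, over the same day 10 against day 3 fit, in which 12.5% of all genes fell and 14.1% rose. Of 8 tested genes in a list of other sterol synthesis and uptake genes, 4 fell and 1 rose. Cyp27a1, which oxidises the side chain of cholesterol, rose by 1.92 (edgeR adjusted p = 0.0274), but its level did not exceed 1.41 CPM. Of 7 genes that escort, cleave or degrade the SREBP machinery, 3 fell, all by less than 0.5. Rnf145 fell by 0.36, Scap by 0.36 and Mbtps2 by 0.30, with edgeR adjusted p of 0.0290, 0.0315 and 0.0444.

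Of 18 tested genes in a list of other fatty acid and glycerolipid synthesis genes, 5 fell, against 12.5% of all genes, and 0 rose. The acyl-CoA synthetases Acsl4 and Acsl3 fell by 1.43 and 1.28, Aacs, which activates acetoacetate, by 1.02, and the elongation enzyme Hsd17b12 by 0.92 (edgeR adjusted p between 0.00680 and 0.0158). The genes that assemble triglyceride did not pass: Gpam, Agpat2, Lpin1, Dgat1 and Dgat2 had fitted differences between -0.62 and 0.13. Acsl3 and Acsl4 were lower on each later day in both treatments.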

How the data were processed

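The 6 MC3T3 RNA libraries and the H3K27me3 chromatin with input were analysed from the deposited tables. Per the submitters' processing notes, the tools were CASAVA 1.9, TopHat2 2.0.6, HTSeq 0.5.3p9, BWA 0.5.9 and SICER 1.1, on mm10. Which annotation release, counting mode and SICER settings were used is not given in the sources used. The mRNA kit does not mark strand. The authors deposited counts and RPKM per gene side by side, and island tables with read counts, a fold (ratio) over input and p-values. All deposited counts were even numbers, so intervals were computed on counts divided by 2, and the authors' RPKM served only to compare levels per length.

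Counts were filtered on low values, scaled by TMM and fitted in R 4.3.3 with edgeR 4.0.16 (quasi-likelihood test, day plus treatment, 2 residual degrees of freedom, Benjamini-Hochberg adjustment over 14344 genes, threshold 0.05). Removal was a further term with 1 residual degree of freedom. The SE is the difference divided by the square root of F. Log2 ratios between 2 libraries used a prior count of 2 and exact binomial 95% intervals. The fitting procedure was also run on simulated counts with planted changes. Its outcome is not given here, and no result rests on it. Alternatives were other scalings, no filter, limma 3.58.1 (voom), DESeq2 1.42.0, left-out libraries and other island windows. Members and lists were chosen with earlier results of these data known. Per-library values are printed for the regulators, the fatty acid arm, the 3 largest and 3 smallest sterol differences and the extreme day 6 ratios, and up to 4 called genes per related list. The labels name no independent cultures. The p-values therefore reflect only how these libraries vary, which may be technical. In all, 12 of 33 members overlap another gene's listed span. Mir684-1 was counted at both Acly and Acaca, which lie far apart on chromosome 11, so this count may be too high. Some genes of the related lists are not reported here by name.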

Additional observations from a re-analysis of the deposited data

Results flagged for a closer look

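In both arms the median log2 ratio of GSK126 to vehicle had opposite signs on days 6 and 10. These values were flagged for that, and it is not particular to the arms. In the sterol arm the median log2 ratio was -0.49 on day 6, with 16 of 17 genes lower, and 0.26 on day 10, with 16 of 17 higher. In the fatty acid arm the median was -0.31 on day 6, with 8 of 11 genes lower, and 0.14 on day 10, with 8 of 11 higher. Other sterol synthesis and uptake genes had medians of -0.42 and 0.26. Other fatty acid and glycerolipid synthesis genes had -0.11 and 0.08, and proliferation markers -0.75 and 0.77. The lists of SREBP machinery, sterol efflux, fatty acid oxidation and osteoblast genes did not go from below to above 0. Per gene, that order was seen in 15 of 17 sterol and 5 of 11 fatty acid genes, against 17.8% of all genes tested. The difference between the medians was not tested, since each day has 1 library per treatment. For single genes, the edgeR term for GSK126 on day 10 against days 3 and 6 called 0 of 33 members, with 11 at an unadjusted p below 0.05, and DESeq2 called 1.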

How the results depend on the processing

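DESeq2 called more members than edgeR: 2 for GSK126, 17 for day 6 against day 3, 18 for day 10 against day 6 and 1 for the removal term. Over all genes it called 693 higher and 615 lower for GSK126, against 145 and 39 in edgeR. Its shares of all genes were 9.12% for GSK126 and 12.1% for day 6 against day 3. For day 10 against day 6 and the removal term they were 14.8% and 0.153%. With 1 library or 1 day left out, the members called for day 10 against day 3 ranged from 0 to 29, the sterol genes lower from 0 to 16 and the fatty acid genes lower from 0 to 10. The same fits gave 0 to 2 members for GSK126 and 0 to 10 for day 6 against day 3. Calls over all genes shrank and grew with them in the fits described above, so these ranges do not concern the members alone. A lone library is then assumed to vary like the others. The day 10 calls were lost without the GSK126 library of day 3 and nearly all lost without the vehicle library of day 10. They were largely kept without the GSK126 library of day 10. The cause of these losses was not tested.

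With library size alone, the medians for day 6 against day 3 were -0.61 (sterol) and -0.54 (fatty acid) in vehicle and -1.08 and -0.67 with GSK126, and those for day 10 against day 3 with GSK126 were -1.49 and -0.90. Srebf1 turned negative for day 10 against day 3, at -0.060 with library size alone and over a range of -0.14 to 0.22 with a library or day left out (-0.13 without the GSK126 library of day 3). Of 26 members, those with an island at the start site in vehicle numbered 0 within 1 kb and 5 within 10 kb. The shares of tested genes were 4.70% and 22.6%. Members numbered 0 with an overlap of 500 bases and 0 at a SICER adjusted p below 1e-10, against 7.43% and 3.90%. With GSK126, 1 of 26 had an island within 10 kb, against 17.2%. With 1 base changed, 10 of 26 members held a sterol regulatory element, against 24.4% of all promoters. The labels give no replicate numbers, and the day term of the fit pairs the vehicle and GSK126 libraries of each day. Without that pairing (no replicate block), edgeR called 0 members for GSK126, with 1 at an unadjusted p below 0.05, as it called 0 with it. Single-day ratios rest on 1 library each, and depth limits only their counting intervals.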

Other observations

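Some genes of sterol handling rose over the culture. Of the efflux genes listed, Abca1 rose, while Abcg1 had 0 counts in every library and Apoe peaked at 2.20 CPM. Of 9 tested genes in a list of liver X receptor targets and sterol efflux genes, 4 rose from day 3 to day 10 and 0 fell (edgeR adjusted p below 0.05, against 14.1% of all genes higher). Fitted differences were above 0 in 6 of the 9 and below 0 in 3, the lowest at -0.27. Abca1, which exports cholesterol to apolipoproteins, stood at 5.04, 8.50 and 18.9 CPM in vehicle and at 8.88, 14.7 and 21.7 with GSK126 on days 3, 6 and 10. Abca1 rose by 1.61 on the log2 scale (SE 0.19, edgeR adjusted p = 0.0119), and its 2 day 10 libraries were above the other 4. Smpdl3a rose by 1.76, Npc2, a lysosomal cholesterol carrier, by 0.53, and Mylip, a ubiquitin ligase for lipoprotein receptors, by 0.48.

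Of 10 tested fatty acid oxidation genes, Hadhb and Acadvl rose, by 0.49 and 0.42, and 0 fell; 2 of 10 is near the 14.1% of all genes that rose. Pdk4, a kinase that holds back pyruvate dehydrogenase, was lower with GSK126 on each day. It stood at 81.0, 51.5 and 65.1 CPM in vehicle and at 33.6, 15.9 and 23.6 with GSK126.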
